A study of Mus musculus with 10 samples.

Results

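Interleukins are the secreted signals that immune and tissue cells use to instruct one another, and the genes described here are 64 interleukin and interleukin receptor genes out of 24202 gene symbols measured in mouse bladder tumors. They are the symbols that begin with Il and a digit, 70 in all, without 6 that were left out (Il1b, Il1rl1, Il2ra, Il7r, Il10 and Il12b). By role they are 25 ligands, 32 receptor chains, 5 antagonists, decoys or binding proteins, and 2 genes that are neither ligand nor receptor: Il1bos, an antisense RNA at the Il1b locus, and Il4i1, an amino acid oxidase. A filter of a mean of at least 10 normalized counts over the 10 tumors kept 50 of them: 18 ligands, 28 receptor chains, 3 antagonists and Il1bos.

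The tumors were grown from MB-49, a mouse bladder cancer cell line, by placing 100000 cells under the skin of the right flank of mice in which human LRRC32 had been knocked in; all 10 hosts carried this hLrrc32 knock-in. LRRC32 encodes GARP, which tethers latent TGF-beta to the surface of regulatory T cells and platelets. In 5 tumors the host had received PIIO-1, a GARP antibody, as 200 ug per animal, injected intraperitoneally on days 6 and 9, and in 5 the host had received PBS, for which the labels give no days; tumors were collected on day 10. Whether each tumor came from its own animal is not stated in the labels, so p-values measure the spread between these samples.

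Interleukins bind receptors built from a chain that recognises the ligand and a chain that carries the signal, and several families share the second chain: the common gamma chain (Il2rg) for IL-2, IL-4, IL-7, IL-9, IL-15 and IL-21, and gp130 (Il6st) for IL-6, IL-11 and IL-27. These receptors work through JAK kinases and STAT factors, which switch on SOCS and Cish as feedback inhibitors, whereas receptors for the IL-1 and IL-17 families work through adaptors that end at NF-kappaB. Soluble receptors, decoys and binding proteins take up ligand without passing a signal on. In tumors, IL-15 and IL-12 are known for sustaining T cells and natural killer cells, and IL-6 and IL-1 for drawing in and activating myeloid cells.

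Libraries held 18843192 (PBS tumor 4) to 37581521 (PBS tumor 3) reads in genes, and PIIO-1 libraries 29689555 to 35299028. At these depths 3 reads were worth 2.45 to 4.68 normalized counts, so counting error is small for most members and large for those near 10. Of the epithelial markers, Krt8 and Krt18 were at least 50275 and 29446 normalized counts in every tumor, whereas the urothelial gene Upk3a was between 0 and 3.27 and Epcam between 10.9 and 29.6. In bulk tumors, fewer cells of a type and less RNA per cell cannot be told apart, and this holds for each result that follows.

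No interleukin or receptor gene differed between PIIO-1 and PBS tumors after adjustment. limma called 0 of the 50 members and 0 of all 16767 genes tested (0%), and its lowest adjusted p among members was 0.837. At an unadjusted p under 0.05 there were 4 members, which is 4 of 50 against 5.63% of all genes: Il9r and Il6ra were higher in PIIO-1 tumors, as were 2.86% of all genes, and Il12rb1 and Il7 were lower, as were 2.77%. edgeR on the recovered reads called 0 members, with 6 at an unadjusted p under 0.05 against 5.81% of all genes, and DESeq2 called 0 members and 0.0179% of all genes, with 8 members at an unadjusted p under 0.05 against 6.04%. No member had groups that did not overlap, against 0.853% of all genes. The PIIO-1 mean of log2 values was higher for 30 of the 50 (60%) and lower for 20, where 51.1% of all genes were higher. The median log2 difference was 0.15 over the ligands (range -0.47 to 0.88), 0.08 over the receptor chains (range -0.60 to 1.24) and 0.0027 over all genes; leaving out PIIO-1 tumor 5 brought the ligand median to -0.010, and leaving out PIIO-1 tumor 4 brought the receptor median to -0.016. Every difference given is the PIIO-1 mean minus the PBS mean of log2(normalized count + 1), from limma over 5 against 5 tumors.

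**Figure D1:**
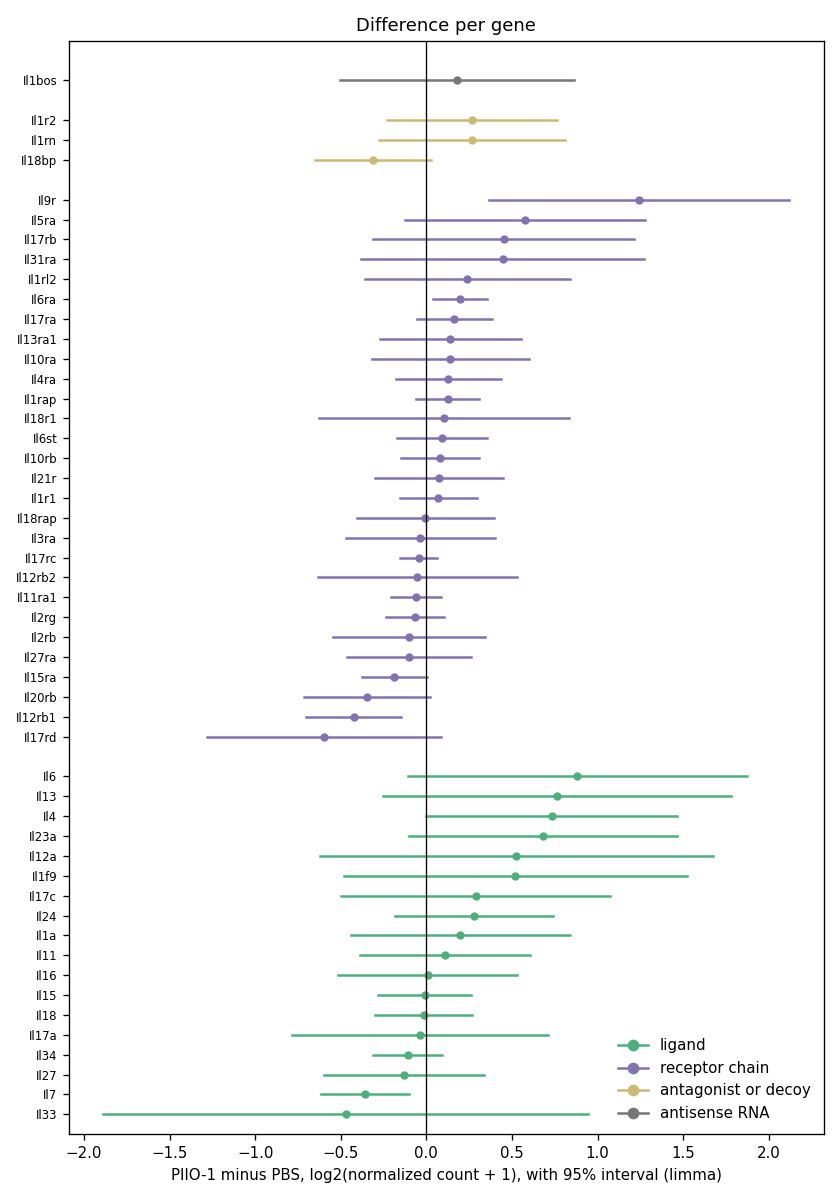
Difference between PIIO-1 and PBS tumors (log2 scale, horizontal axis) for each of the 50 kept members, with its 95% interval from limma. Most intervals span 0, and the widest belong to low or variable members such as Il33, Il12a and Il6.

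Many members were highest in the same pair of PIIO-1 tumors. PIIO-1 tumor 4 held the highest value of 16 members and PIIO-1 tumor 5 of another 16, together 32 of the 50 (64%), whereas these tumors held the highest value of 27.7% of all genes. By role they held it for 13 of 18 ligands, 16 of 28 receptor chains and 2 of 3 antagonists. PIIO-1 tumor 1, of the same treatment group, held the lowest value of 15 members (30%), against 13.2% of all genes. These shares were counted after the values had been seen. The same tumors also stood apart across all genes: on the first principal component PIIO-1 tumors 5 and 4 lay at one end (-43.2 and -26.6) and PIIO-1 tumor 1 at the other (30.4). Summed red blood cell markers, 5 of 5 higher on average under PIIO-1, were 58643 in PIIO-1 tumor 5 and 23821 in PIIO-1 tumor 4, against 5488 to 12848 in PBS tumors and 8372 to 20043 in the other PIIO-1 tumors. Mitochondrial genes took 3.12% of reads in PIIO-1 tumor 5 and 0.986 to 2.22% in the others. The part of these in the members' values was not tested.

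**Figure D2:**
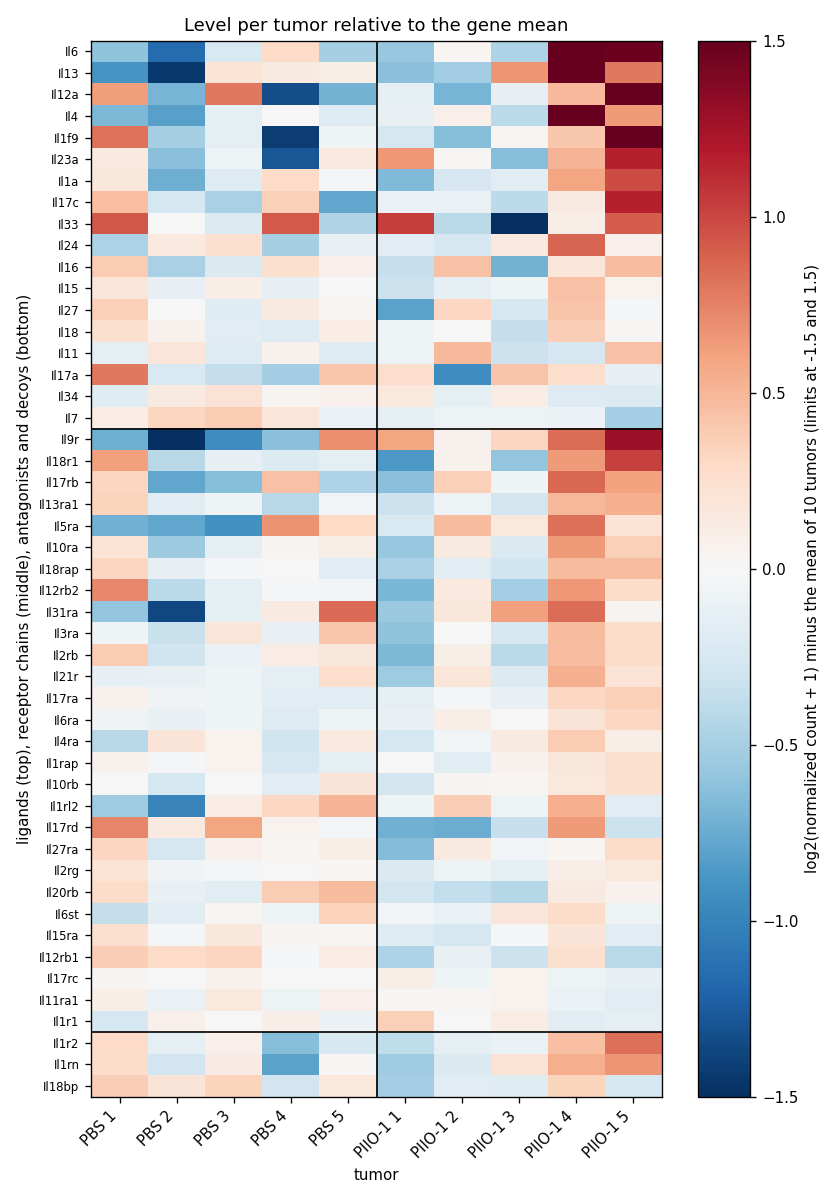
Log2 normalized count of each of 49 members minus that gene's mean over the 10 tumors (color scale), with tumors in columns and genes in rows by role. The columns of PIIO-1 tumors 4 and 5 are warm for many ligands and receptors, and that of PIIO-1 tumor 1 is cool.

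The cytokine genes Il4, Il13 and Il6 were also highest in PIIO-1 tumors 4 and 5, as were other members such as Il1a, Il10ra and Il17ra. These 3 cytokine genes were chosen with the values known, and whether they moved together was not tested. The 250 bases before their start sites are printed as a description. Il4 (chr11:53602982-53618669, minus strand, GRCm38) and Il13 (chr11:53631324-53634702, minus strand) are neighbors, 12654 bases apart, in the type 2 cytokine cluster that also holds Il5, 86091 bases beyond Il13. Il6 lies at chr5:30013114-30019981 on the plus strand. The sequences come from RefSeq on GRCm38.p6, from which 49 of the 64 members had an entry, and run 5′ to 3′ on the gene's own strand (Il4 at chr11:53618666-53618915, Il13 at chr11:53634703-53634952, Il6 at chr5:30012864-30013113). Capitals mark matches, on either strand, to the letters searched for NFAT, GATA, NF-kappaB, AP-1 and TATA box motifs, which are spelled out after the sequences.
Il4: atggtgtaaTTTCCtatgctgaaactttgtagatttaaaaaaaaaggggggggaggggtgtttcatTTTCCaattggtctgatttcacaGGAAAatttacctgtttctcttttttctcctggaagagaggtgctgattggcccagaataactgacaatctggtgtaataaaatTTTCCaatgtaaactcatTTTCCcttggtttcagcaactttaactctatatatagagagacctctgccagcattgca
Il13: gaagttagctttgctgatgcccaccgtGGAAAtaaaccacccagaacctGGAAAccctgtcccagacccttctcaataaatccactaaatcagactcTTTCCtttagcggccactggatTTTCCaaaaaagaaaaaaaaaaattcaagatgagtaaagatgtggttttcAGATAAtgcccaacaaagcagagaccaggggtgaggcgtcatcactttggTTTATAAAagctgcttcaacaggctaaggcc
Il6: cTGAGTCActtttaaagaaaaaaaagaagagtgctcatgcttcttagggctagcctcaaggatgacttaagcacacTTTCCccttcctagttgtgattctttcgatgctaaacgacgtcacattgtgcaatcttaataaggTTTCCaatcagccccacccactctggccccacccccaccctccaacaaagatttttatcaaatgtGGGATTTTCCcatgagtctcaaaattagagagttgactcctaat
The Il4 window held 5 matches to GGAAA, the core that NFAT factors bind, a number that 0.39% of 32851 mouse promoter windows of this length reach, and the Il13 window held 4, reached by 1.59%; a single match is common, in 55.6% of windows. Il13 also had 1 match to AGATAA, the GATA letters, 81 to 76 bases before the start, a motif in 9.99% of windows, and a pair of overlapping matches to the TATA box letters TATAAA, which are found in 12.4%. The Il6 window held 1 match to the NF-kappaB motif, read as GGG, any 2 bases and then TTTCC, at 44 to 35 bases before the start (1.41% of windows). It also held 1 match to the AP-1 letters TGANTCA (6.75% of windows). The NFAT letters matched 3 times, a number that 6.39% of windows reach, and 1 of these matches lies inside the NF-kappaB match. TTCNNNGAA, the STAT letters, matched in none of the 3 windows and in 7.02% of all. A match describes letters and is not evidence of binding.

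Il6, which drives acute-phase and myeloid responses, measured 398, 272, 520.2, 739.6 and 428 normalized counts in PBS tumors 1 to 5 and 411, 620.5, 440.3, 2018 and 1684 in PIIO-1 tumors 1 to 5. PIIO-1 tumors 4 and 5 stood above all others, and the remaining PIIO-1 tumors lay within the PBS range. The means were 472 ± 174 and 1035 ± 759 (SD, n = 5 each), a log2 difference of 0.88 (SE 0.45, limma unadjusted p = 0.0754, adjusted p = 0.837), or 0.56 without PIIO-1 tumor 4.

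Il4, the cytokine of type 2 helper T cells, mast cells, basophils and eosinophils, measured 86.9, 79.0, 126, 139 and 122 in PBS tumors and 129, 147, 106, 433 and 218 in PIIO-1 tumors. PIIO-1 tumor 4 was the highest and tumor 5 the next, and the groups overlapped below them. The difference was 0.73 on the log2 scale (SE 0.34, limma unadjusted p = 0.0503, adjusted p = 0.837), and 0.42 without PIIO-1 tumor 4. Il13, its neighbor, which acts on epithelium and macrophages, measured 24.8, 16.6, 53.9, 51.5 and 49.95 against 29.8, 32.3, 74.4, 145 and 81.7. Here too PIIO-1 tumors 4 and 5 were the highest, with tumor 3 next, and both groups had low tumors; the difference was 0.76 (SE 0.46), or 0.45 without PIIO-1 tumor 4. Il5, the eosinophil growth factor of the same cluster, had only 0 to 9 reads per tumor and was below the filter.

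Mast cell markers were highest in the same tumors, and eosinophil markers were not confined to them. Summed mast cell markers (6 measured of 7 listed, all 6 with a higher PIIO-1 mean) ranged from 454 to 681 in PBS tumors and from 539.8 to 1846 in PIIO-1 tumors, the top value in tumor 5. Ms4a2, the beta chain of the IgE receptor, was 158 in PIIO-1 tumor 4 and 222 in tumor 5, and 21.5 to 79.3 in the other 8. The mast cell proteases Mcpt4, Tpsb2 and Cma1 were high in PIIO-1 tumor 5 alone, at 457, 255 and 215. Summed eosinophil markers ranged from 729 to 2434 in PBS and from 1015 to 2541 in PIIO-1 tumors, highest in PIIO-1 tumor 4 and next in PBS tumor 4 (2434), above PIIO-1 tumor 5 (1767), with Epx, a defining granule protein, below the filter. The part of these cells in the Il4 and Il13 values was not tested.

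Among the IL-12 family, Il23a, the p19 subunit of IL-23, measured 86.0, 49.7, 73.5, 31.2 and 86.1 in PBS tumors and 122, 78.3, 49.3, 111 and 175 in PIIO-1 tumors. The 3 highest tumors were PIIO-1 tumors 1, 4 and 5, but tumors 2 and 3 lay inside the PBS range. The difference was 0.68 (SE 0.36, limma unadjusted p = 0.0828, adjusted p = 0.837), or 0.44 without PBS tumor 4 and 0.24 without both PBS tumor 4 and PIIO-1 tumor 5. Il27, the p28 subunit of IL-27, measured 166, 129, 114, 142 and 132 against 73.6, 160.5, 109.6, 175 and 127, with PIIO-1 tumors at both ends; the difference was -0.13 (SE 0.21) and turned to 0.05 without PIIO-1 tumor 1. Summed dendritic cell markers, from cells that make these subunits, ranged from 1117 to 2405 in PBS and from 1544 to 3470 in PIIO-1 tumors, also highest in PIIO-1 tumor 5, and their part was not tested.

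Il7, the growth factor that stromal cells supply to lymphocytes, was the ligand with the lowest unadjusted p. It measured 241, 279, 292, 253 and 208 in PBS tumors and 201, 212, 211, 209.6 and 157 in PIIO-1 tumors. All PIIO-1 tumors stood below 4 of the 5 PBS tumors, and PBS tumor 5 fell among them. The means were 254 ± 32.7 and 198 ± 23.5 (SD, n = 5 each), a log2 difference of -0.36 (SE 0.12, limma unadjusted p = 0.011, adjusted p = 0.837). It lay between -0.43 and -0.28 with any 1 tumor left out. Without PBS tumor 5 the groups no longer overlapped, as for 2.43% of all genes under that omission. Summed fibroblast markers, the stromal list, spanned 2489 to 7142 in PBS tumors and 1987 to 9965 in PIIO-1 tumors. On the log2 scale 2 of 7 markers had a higher PIIO-1 mean, a count that can differ for means of normalized counts. The part of fibroblasts in Il7 was not tested.

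Il15, which sustains natural killer cells and memory CD8 T cells, showed no difference that these tumors resolve. It measured 916, 746, 868, 743 and 807 in PBS tumors and 649, 741, 772, 1099 and 843 in PIIO-1 tumors, with PIIO-1 tumors both lowest and highest. The log2 difference was -0.01 with a 95% interval of -0.28 to 0.26, and its sign changed in edgeR (0.0017), in DESeq2 (0.0081) and without 1 or another tumor (-0.12 to 0.07). Il18, an inflammasome product that acts on the same lymphocytes, measured 504, 446, 379, 375 and 461 against 407, 427, 335, 554 and 433. The groups overlapped over nearly their whole range, and the difference was -0.02 (95% interval -0.30 to 0.27; -0.11 to 0.07 with 1 tumor left out).

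The most abundant ligands per length of annotated exon, by the mean over 10 tumors, were Il34, Il24 and Il1a. At 1080.0 ± 121 normalized counts per kilobase of exon (SD over 10 tumors), Il34, a second ligand of the receptor for the macrophage growth factor CSF1, was the highest; Il24, an IL-10 family cytokine of skin and wounds, was at 736 ± 229 and Il1a at 559 ± 219. Il34 measured 1847, 2315, 2437, 2167 and 2204 normalized counts in PBS tumors and 2347, 1909, 2271, 1834 and 1826 in PIIO-1 tumors. Its groups overlapped, with 3 PIIO-1 tumors close to the lowest PBS tumor; the log2 difference of -0.11 (SE 0.092) was -0.17 without PBS tumor 1 and -0.07 without PBS tumor 3. Il24 measured 709, 1093, 1161, 694 and 913 against 883, 827, 1091, 1797 and 1039, so that PIIO-1 tumor 4 alone stood apart; its difference was 0.28 (SE 0.21), or 0.09 without that tumor.

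Il1a, the alarmin form of IL-1 that cells release when they die, measured 1165, 625, 905, 1262 and 1019.7 in PBS tumors and 656, 871, 928, 1565 and 2038 in PIIO-1 tumors. The 2 highest tumors were again PIIO-1 tumors 4 and 5, and the difference of 0.20 (SE 0.29) was -0.02 without tumor 5. Il33, the stromal alarmin, measured 53.5, 27.3, 23.7, 53.1 and 19.8 against 57.7, 20.6, 3.02, 29.6 and 52.6. It was the most variable kept member (SD 1.16 on the log2 scale over 10 tumors); PIIO-1 tumor 3 stood lowest, and the difference of -0.47 (SE 0.65) turned to 0.18 without it. Il11, a gp130 cytokine of stroma, was low in both groups, at 16.2, 20.5, 15.5, 18.7 and 15.5 against 16.9, 25.4, 14.1, 14.8 and 24.5, and its difference of 0.11 (SE 0.23) was -0.0018 without PIIO-1 tumor 2. Among the kept ligands not named by rule (Il12a, Il16, Il17a, Il17c and Il1f9, the gene of IL-36 gamma) all 5 had an unadjusted p above 0.05.

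**Figure D3:**
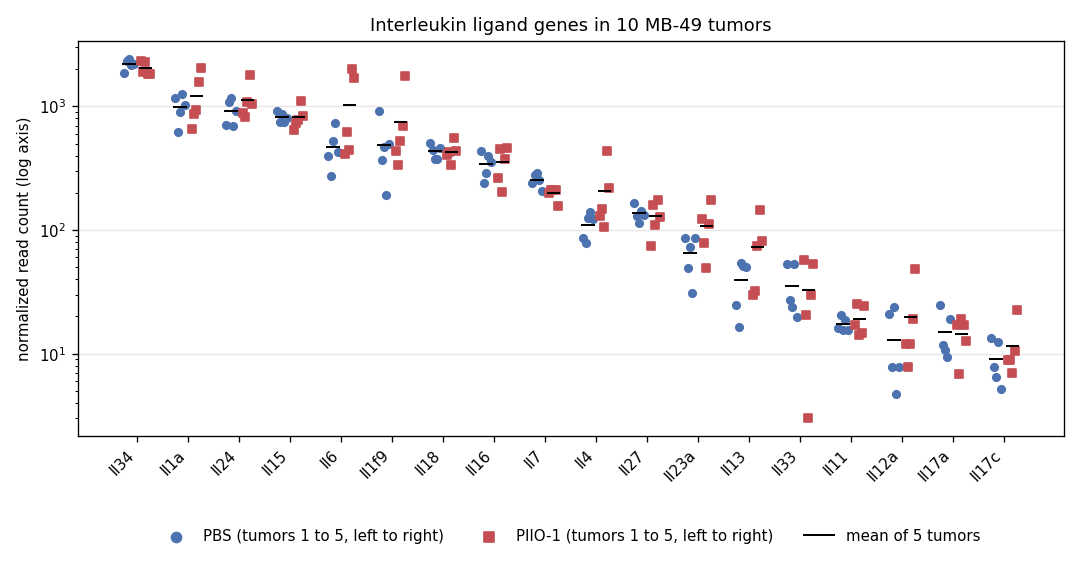
Normalized counts (log axis) of the 18 kept ligands in each tumor, PBS tumors 1 to 5 and then PIIO-1 tumors 1 to 5 from left to right within each gene, with a bar at each group's mean. For Il6, Il4, Il13 and Il1a the top 2 points are PIIO-1 tumors 4 and 5, and for Il7 the PIIO-1 points lie low.

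Among receptor chains, Il12rb1, the subunit shared by the IL-12 and IL-23 receptors on T cells and natural killer cells, had the lowest unadjusted p of all kept members. It measured 3759, 3559, 3627, 2863 and 3140.1 in PBS tumors and 2116, 2691, 2320.1, 3443 and 2199 in PIIO-1 tumors. Of the PIIO-1 tumors 4 stood below every PBS tumor, and tumor 4 stood among the PBS values. The means were 3389.7 ± 374 and 2554 ± 544 (SD, n = 5 each), a log2 difference of -0.42 (SE 0.13, limma unadjusted p = 0.00612, adjusted p = 0.837). Leaving out 1 tumor at a time gave values between -0.54, when tumor 4 of the PIIO-1 group was removed, and -0.36, when its tumor 1 was. The lowest adjusted p of any member in DESeq2 was 0.448, and Il12rb1 had it. Its partner for IL-12, Il12rb2, had means of 360.0 and 355.03, and 40.0% of its exon length overlaps another gene.

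T cell and natural killer cell markers were low in some of the tumors low in Il12rb1 and not in others. Summed T cell markers ranged from 3244 to 6522 in PBS and from 2487 to 6714 in PIIO-1 tumors, with PIIO-1 tumor 1 lowest and PIIO-1 tumor 5 highest. By the mean of log2 values, 2 of 10 T cell markers were higher under PIIO-1. Summed natural killer markers ranged from 2052 to 3770.4 and from 1769 to 4155. By the mean of log2 values, 0 of 5 were higher under PIIO-1, a count that can differ for means of normalized counts. PIIO-1 tumors 1 and 3, low in Il12rb1, had the lowest T cell sums (2487 and 2637) and natural killer sums (1769 and 1967). PIIO-1 tumor 4, the highest PIIO-1 tumor in Il12rb1, had the highest natural killer sum. PIIO-1 tumor 5 held 2199 normalized counts of Il12rb1, among the lowest, and the highest T cell sum. PIIO-1 tumor 2, below every PBS tumor in Il12rb1, had sums of 4215 and 3495, inside the PBS ranges. The part of these cells in the Il12rb1 difference was not tested.

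Il9r, the receptor for IL-9 on mast cells and T cells, was the kept member with the widest difference, at low counts. It measured 5.73, 2.93, 4.90, 6.24 and 17.2 in PBS tumors and 15.9, 10.8, 13.1, 19.1 and 26.3 in PIIO-1 tumors. All PIIO-1 tumors stood above 4 of the 5 PBS tumors, and PBS tumor 5 reached into their range. The means were 7.40 ± 5.63 and 17.0 ± 6.05 (SD, n = 5 each), a log2 difference of 1.24 (SE 0.40, limma unadjusted p = 0.0095, adjusted p = 0.837), between 1.02 and 1.57 with 1 tumor left out. Mast cell markers were highest in the 2 PIIO-1 tumors in which Il9r was highest, and their part was not tested.

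Of the other common gamma chain receptors, Il2rb, the signalling chain shared by the IL-2 and IL-15 receptors, measured 6944, 4337, 4987, 5772 and 6036 in PBS tumors and 3362, 5663, 4040.1, 7351 and 6496 in PIIO-1 tumors. PIIO-1 tumors again held both ends of the range, and the difference of -0.10 (SE 0.20) was 0.05 without PIIO-1 tumor 1. Il2rg itself was among the least variable members (SD 0.13 on the log2 scale), at 2812, 2345, 2399.9, 2449.9 and 2494 against 2103, 2319, 2219, 2613 and 2729.8. Its difference of -0.06 (SE 0.077) became -0.11 when PIIO-1 tumor 5 was removed and -0.02 when PIIO-1 tumor 1 was, and 30.5% of its exon length overlaps a gene model on the same strand. Il15ra, which presents IL-15 to neighboring cells, measured 2503, 2094, 2384, 2177 and 2139 against 1842, 1757, 2086, 2411 and 1872. As for Il12rb1, PIIO-1 tumor 4 was the only PIIO-1 tumor above the lowest PBS tumor, and the difference was -0.19 (SE 0.086, limma unadjusted p = 0.052, adjusted p = 0.837).

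Il4ra is the chain that binds IL-4 and joins Il13ra1 to bind IL-13. Its mean level per length of annotated exon was the highest among members, at 2218 ± 377 normalized counts per kilobase (SD over 10 tumors). It measured 9862, 15030.5, 13634, 10664 and 14559 in PBS tumors and 10935, 12739.9, 14444, 17122 and 14128 in PIIO-1 tumors. The groups overlapped, with PIIO-1 tumor 4 highest, and the log2 difference of 0.13 (SE 0.14) became 0.04 when PBS tumor 1 was removed and 0.21 when PIIO-1 tumor 1 was. Per length, Il4ra exceeded Il13ra1 by a ratio of 3.02 to 6.45 in PBS and of 3.75 to 6.74 in PIIO-1 tumors. Its ligands Il4 and Il13 were at 129 ± 84.5 and 46.5 ± 31.2 per kilobase.

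Il6ra, the chain that binds IL-6, was the other member with a higher PIIO-1 mean at an unadjusted p under 0.05. It measured 2022, 1937, 2005, 1829 and 1996 in PBS tumors and 1947, 2251, 2096, 2389.9 and 2595 in PIIO-1 tumors. PIIO-1 tumors 2 to 5 stood above every PBS tumor, tumors 4 and 5 the highest, and tumor 1 fell within the narrow PBS range. The means were 1958 ± 78.9 and 2256 ± 252 (SD, n = 5 each), a log2 difference of 0.20 (SE 0.072, limma unadjusted p = 0.0182, adjusted p = 0.837), between 0.15 and 0.25 with 1 tumor left out. Il6st, the signalling chain gp130, measured 3743, 4289, 4896, 4561 and 6109.8 against 4672, 4466, 5433, 5813 and 4544. Its highest tumor was a PBS tumor, and its difference of 0.09 (SE 0.12) was 0.01 without PBS tumor 1 and 0.19 without PBS tumor 5. Per length, Il6st exceeded Il6ra by a ratio of 1.44 to 2.38 in PBS and of 1.36 to 2.02 in PIIO-1 tumors.

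Il10ra, the ligand-binding chain of the IL-10 receptor on macrophages and lymphocytes, measured 4984, 2968, 3929, 4455 and 4580.2 in PBS tumors and 2922, 4751, 3720.4, 6719 and 5559 in PIIO-1 tumors. PIIO-1 tumors 4 and 5 were the highest and tumor 1 the lowest, and the difference of 0.14 (SE 0.21) was -0.0010 without tumor 4. Il20rb, a chain shared by receptors for IL-19, IL-20 and IL-24, measured 129.9, 99.5, 96.4, 140.4 and 149.9 against 88.5, 83.2, 79.4, 117 and 113. Of the PIIO-1 tumors 3 stood below every PBS tumor, and the difference was -0.35 (SE 0.17, limma unadjusted p = 0.0613, adjusted p = 0.837).

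In the IL-17 family, Il17ra, the chain common to its receptors, measured 3429, 3150.2, 3112, 2916 and 2922 in PBS tumors and 2998, 3215, 3042, 4063 and 4213 in PIIO-1 tumors. Only tumors 4 and 5 of the PIIO-1 group stood above the PBS range, and the difference of 0.16 (SE 0.10) was 0.09 without tumor 5. Its partner Il17rc was the least variable kept member (SD 0.065 on the log2 scale). Il17rd, a membrane protein of the same family that modulates growth factor signalling, was low, at 18.1, 11.7, 16.3, 10.9 and 10.3 against 5.97, 5.87, 8.04, 16.9 and 8.17. In that gene PIIO-1 tumor 4 was the exception above the lowest PBS tumor, and the difference was -0.60 (SE 0.31). Il5ra, the IL-5 receptor chain of eosinophils, measured 47.8, 45.8, 41.6, 126 and 97.3 against 67.6, 111, 88.5, 141 and 91.7. It was highest in tumor 4 of each group, the tumors in which the eosinophil marker Siglecf was also highest (947 and 827), and the difference was 0.58 (SE 0.32); the part of eosinophils was not tested.

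The decoys and antagonists of the IL-1 family were abundant in every tumor. Il1r2, the decoy that binds IL-1 without signalling, stood at 2141 ± 685 normalized counts per kilobase of exon. By mean it was second to Il4ra among members, but its highest tumor reached 3649 against 2853 for Il4ra. Il1rn, the IL-1 receptor antagonist, stood at 1709 ± 526 (SD over 10 tumors). Il1r2 measured 4785, 3528, 4125, 2515 and 3331 in PBS tumors and 3005, 3557, 3667, 5371 and 6962 in PIIO-1 tumors. Il1rn measured 10974, 7436, 9869, 5181 and 9165 against 6236, 7776, 10547, 13169.8 and 14259. In both genes PIIO-1 tumors 4 and 5 were the highest and PBS tumor 4 the lowest, and the other tumors of the groups were mixed. The log2 differences were 0.27 (SE 0.23) and 0.27 (SE 0.25). They fell to 0.09 for Il1r2 without PIIO-1 tumor 5 and to 0.10 for Il1rn without PBS tumor 4, and to -0.035 and -0.033 with PIIO-1 tumor 5 and PBS tumor 4 both left out.

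The decoy exceeded the signalling receptor Il1r1 per length by a ratio of 5.95 to 14.5 in PBS and of 5.93 to 19.5 in PIIO-1 tumors. For the antagonist Il1rn against Il1a the ratios were 1.46 to 4.24 and 2.50 to 4.05. Il1b is not among the members, so the ratio to Il1a leaves out a part of IL-1. Il18bp, the secreted protein that captures IL-18, measured 2129, 1879, 2069, 1349.8 and 1826 in PBS tumors and 1152, 1460.1, 1451, 2077 and 1375 in PIIO-1 tumors. As for Il12rb1 and Il15ra, PIIO-1 tumor 4 was the high tumor of a group that was otherwise low, while PBS tumor 4 was low among its group. The means were 1851 ± 307 and 1503 ± 344 (SD, n = 5 each), and the difference was -0.31 (SE 0.15, limma unadjusted p = 0.0687, adjusted p = 0.837). Its ratio to Il18 per length ranged from 1.23 to 1.86 in PBS and from 0.965 to 1.48 in PIIO-1 tumors.

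**Figure D4:**
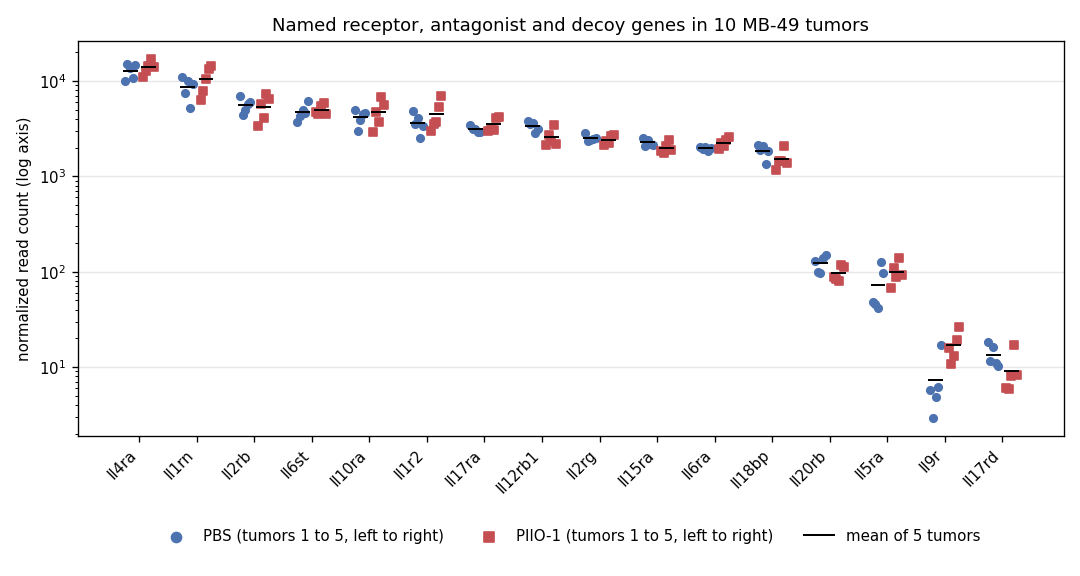
Normalized counts (log axis) of 16 named receptor chains and antagonists in each tumor, PBS tumors 1 to 5 and then PIIO-1 tumors 1 to 5 from left to right within each gene, with a bar at each group's mean. For Il12rb1, Il15ra and Il18bp most PIIO-1 points lie low with PIIO-1 tumor 4 above them, and for Il1r2 and Il1rn PIIO-1 tumors 4 and 5 are at the top.

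Members were also compared with summaries of marker genes for the cells known to carry them, over all 10 tumors and without regard to treatment, for 8 pairs chosen by cell type. Each summary was the mean log2 level of its markers, p-values came from two-sided permutation tests with 100000 resamples, and they were adjusted by Benjamini-Hochberg over the 8 pairs. Of the 8 pairs, Il1r2 and Il1rn followed their summary, that of neutrophil markers, most closely. For Il1r2 Pearson's r was 0.945 (permutation p = 0.00013, adjusted p = 0.00104) and Spearman's rho 0.927 (permutation p = 0.00041), and for Il1rn r was 0.903 (permutation p = 0.00041, adjusted p = 0.00164) and rho 0.952 (permutation p = 0.00019). Without the 2 tumors farthest from the median of the markers, PIIO-1 tumors 4 and 5, r was 0.824 and 0.869, so the relation did not rest on those tumors alone. Summed neutrophil markers were 19337 to 33628 in PBS and 23546 to 44837 in PIIO-1 tumors, with 8 of 8 markers higher on average under PIIO-1. The markers did not all run together across tumors. In PBS tumor 4, S100a8 (829) and S100a9 (1798) were at their lowest, but Retnlg (2018) was the highest of the PBS tumors. Single markers were not compared with Il1r2 and Il1rn, and the part of neutrophils in the values of each group was not tested.

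Il18rap, the accessory chain of the IL-18 receptor, and Il2rb followed T cell markers. For Il18rap r was 0.890 (permutation p = 0.00086, adjusted p = 0.00229) and rho 0.758 (permutation p = 0.015), and for Il2rb r was 0.777 (permutation p = 0.0087, adjusted p = 0.0174) and rho 0.758 (permutation p = 0.0149); without PIIO-1 tumor 5 and PBS tumor 1, r was 0.818 and 0.741. The Il2rb relation missed the threshold without PIIO-1 tumor 1 (r = 0.701, permutation adjusted p = 0.0729). Natural killer cell markers were not among the 8 pairs. Their sum was lowest in PIIO-1 tumor 1 and highest in PIIO-1 tumor 4, as were Il2rb and Il18rap. Summed T cell markers were also lowest in PIIO-1 tumor 1, but highest in PIIO-1 tumor 5. Whether Il2rb or Il18rap followed natural killer markers more closely than T cell markers was not tested. Il10ra and macrophage markers gave r = 0.679 (permutation p = 0.0311, adjusted p = 0.0498) and rho 0.649 (permutation p = 0.0502), with r = 0.583 without PIIO-1 tumor 1 and PBS tumor 5. This call was lost with most single tumors left out, with r down to 0.522 (permutation adjusted p = 0.174) without PIIO-1 tumor 1.

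The other 3 relations did not pass. Il21r, an IL-21 receptor chain of lymphocytes, against B cell markers gave r = 0.605 (permutation p = 0.0642, adjusted p = 0.0733) and rho 0.685 (permutation p = 0.0347), and r = 0.947 without PIIO-1 tumor 5 and PBS tumor 2. Il33 against fibroblast markers gave r = 0.631 (permutation p = 0.0636, adjusted p = 0.0733) and rho 0.661 (permutation p = 0.044), and r = 0.593 without PIIO-1 tumor 1 and PBS tumor 4. Il11ra1, the IL-11 receptor chain of stroma, gave r = 0.178 (permutation p = 0.634, adjusted p = 0.634) and rho 0.273 (permutation p = 0.448) against the same markers, and r = 0.408 without those 2 tumors. Points of all 8 relations share the libraries and their scaling.

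**Figure D5:**
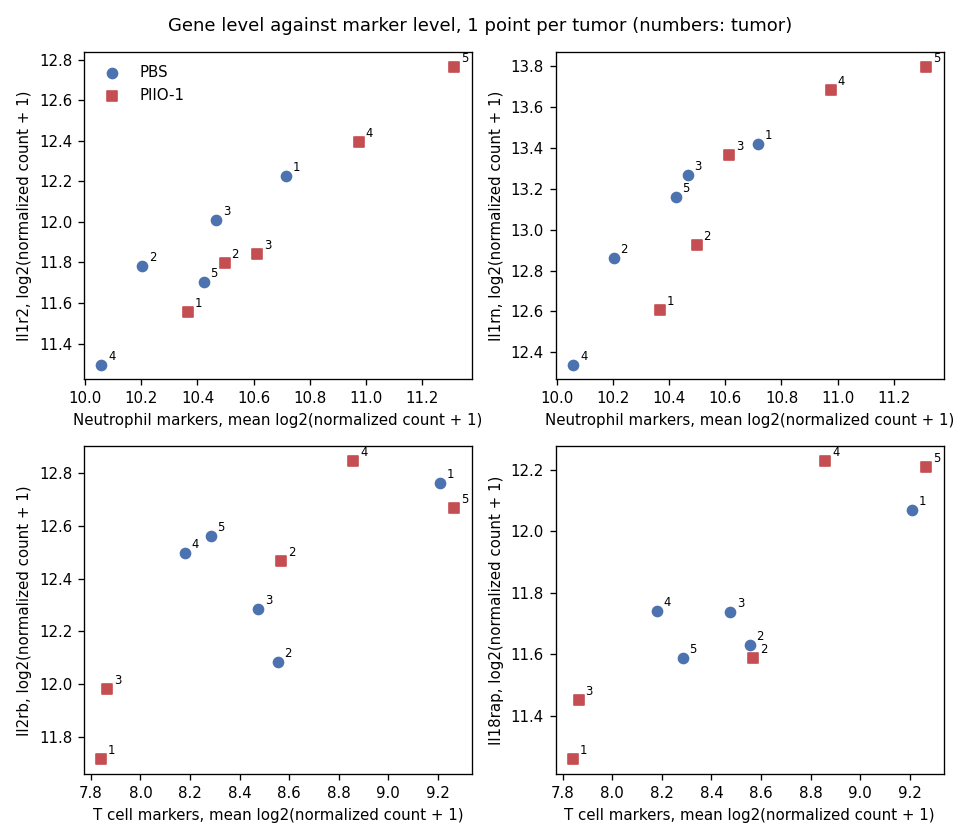
Log2 normalized count of Il1r2 and Il1rn against the mean log2 level of neutrophil markers, and of Il2rb and Il18rap against that of T cell markers, 1 point per tumor colored by treatment. Points rise from lower left to upper right in all 4 panels, with r between 0.777 and 0.945.

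The 14 members below the filter had means of 0.944 (Il1f6, the gene of IL-36 alpha) to 9.24 (Il21, the follicular helper cytokine) normalized counts. They include Il2, the T cell growth factor, at 8.81, and Il3, Il5, Il25 and Il17f among the ligands, Il17re, Il22ra1, Il23r and Il11ra2 among the receptor chains, the decoys Il13ra2 and Il22ra2, and Il4i1. The groups overlapped for all of them except Il23r. For Il4i1, the overlaps with other genes add up to 88.3% of the exon length, so its reads cannot be assigned to it alone. In that sum a base under more than 1 other gene counts more than once.

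Il23r, the chain that pairs with Il12rb1 to bind IL-23, was chosen for description once its values were known. It had 3, 0, 6, 1 and 2 reads in PBS tumors and 5, 10, 22, 7 and 8 in PIIO-1 tumors. In normalized counts the highest PBS tumor stood at 4.90 and the lowest PIIO-1 tumor at 4.97, a gap smaller than 1 read, and in reads the groups overlapped, with 6 in the highest PBS tumor and 5 in the lowest PIIO-1 tumor. The separation is thus present only after scaling by depth. Groups did not overlap for 0.934% of the 24202 genes when no filter was applied. At an unadjusted p under 0.05 that fit had 8 of the 64 members, Il23r among them, against 5.4% of all genes. limma without a filter gave Il23r a log2 difference of 1.87 (SE 0.51) and an adjusted p of 0.874, and most PBS values were below the 2.45 to 4.68 normalized counts that 3 reads are worth.

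Other genes of interleukin signalling were read from a list of 52 genes: cytokines and receptor chains with other names, adaptors of the IL-1 and IL-17 receptors, kinases and STAT factors, and feedback genes. Of these 49 passed the filter, 0 were called, 4 had an unadjusted p under 0.05 (Nfkbiz, Zc3h12a, Osm and Clcf1, all higher in PIIO-1 tumors), where 5.63% of all genes had such a p and 2.86% were higher with it. A higher PIIO-1 mean of log2 values was found for 41 and a lower one for 8, against 51.1% of all genes higher. The median difference was 0.096. Nfkbiz, an NF-kappaB cofactor induced by IL-1 and IL-17, measured 8933, 8432, 8477, 8234 and 9009.6 in PBS tumors and 9272, 8735, 10254, 12641 and 16994 in PIIO-1 tumors. PIIO-1 tumors 4 and 5 were again the highest, with tumor 2 within the PBS range; the difference was 0.38 (SE 0.15, limma unadjusted p = 0.0267, adjusted p = 0.837), or 0.23 without PIIO-1 tumor 5. Zc3h12a, the RNase Regnase-1 that degrades Il6 mRNA, measured 1968, 1659.97, 1955, 1760.2 and 2174 against 1839, 2016, 2377, 2826 and 3433. PIIO-1 tumors 3, 4 and 5 stood above the PBS range, and the difference of 0.36 (SE 0.15) was 0.24 without PIIO-1 tumor 5.

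On the lower side Map3k7, the kinase TAK1 of the IL-1 receptor pathway, measured 3031, 3159.99, 2943, 3032 and 2765 in PBS tumors and 2876, 2817, 2766, 2856 and 2862 in PIIO-1 tumors. Of the PBS tumors 4 stood above every PIIO-1 tumor and tumor 5 below them, and the difference was -0.07 (SE 0.043). All 11 feedback genes had a PIIO-1 mean at or above the PBS mean, with a median difference of 0.080 and 0 called. Socs3, the inhibitor induced by IL-6, measured 10364, 10926, 10241, 9325 and 10709.7 in PBS tumors and 9123, 10581, 12331, 16032 and 16887 in PIIO-1 tumors. It was highest in PIIO-1 tumors 4 and 5, the tumors highest in Il6, and the difference of 0.30 (SE 0.15) was 0.19 without tumor 5. Cish, induced by STAT5, measured 1124, 797, 1019.1, 1507 and 1462 against 931, 1219, 1462, 2439.6 and 1770.6. PIIO-1 tumors 4 and 5 were again above the PBS range, and the difference of 0.37 (SE 0.24) was 0.19 without PIIO-1 tumor 4. Socs1, the inhibitor induced by interferon, measured 5457, 4346, 4181, 4450.3 and 4976 against 3492, 4049.6, 4650.3, 7405 and 4813. PIIO-1 tumors were both lowest and highest, and the difference of 0.02 (SE 0.17) was -0.14 without PIIO-1 tumor 4. Whether the feedback genes follow the cytokines in these tumors was not tested.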

How the data were processed

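Bulk RNA-seq of 10 tumors (5 PIIO-1, 5 PBS) was analysed; groups follow the treatment label and tumor numbers the titles, in which the antibody is a4D3. The deposited values are a signal, gene counts normalized by the authors with DESeq2, per the submitters' processing notes, which also name HISAT2, featureCounts and GRCm38. Neither versions nor the annotation or strand setting are given in the sources used here, so overlapping genes cannot be told apart; exons of 21 of the 63 members with 1 annotated gene overlap another gene, among them Il6ra, Il7, Il18bp, Il1a, Il27, Il34, Il4ra and Il2rg. Dividing each deposited column by its step recovered whole reads, and 100% of values came out whole within 0.001 read; on these reads edgeR called 0 genes and DESeq2 called 3, none of them a member.

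The main test was limma 3.58.1 (R 4.3.3, intensity trend) on log2(value + 1) of the 16767 genes whose mean reached 10, two-sided, Benjamini-Hochberg over all of them, threshold 0.05. Such differences understate changes of low genes. The limma step was tested on simulated data. Levels per kilobase used the merged length of all annotated exons of a gene in GENCODE vM21 (GRCm38), which also gave coordinates. This length can exceed that of the transcript present, so orders by level are approximate. Alternatives were other pseudocounts, filters and scalings, limma with array weights or with no trend, the tumor number as a block, edgeR 4.0.16, DESeq2 1.42.0, and each tumor left out; leaving out both PIIO-1 tumor 5 and PBS tumor 4 was chosen after seeing the data. Tumor numbers did not pair the tumors.

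Members given in every tumor were the 4 ligands and 4 receptor chains with the smallest p in each direction, the 2 such antagonists, the 3 ligands and 3 receptor chains highest per length, and a panel (Il2rb, Il2rg, Il15, Il18, Il33, Il6, Il1a, Il1rn, Il6st, Il4ra, Il17ra, Il11); of other pathway genes, the 2 with the smallest p in each direction and Socs1, Socs3 and Cish. Another gene that this rule names is not reported here. Members and lists were chosen with earlier results of these data known.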

Additional observations from a re-analysis of the deposited data

Results flagged for a closer look

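In each group of 5 tumors, a member was listed when its highest or lowest tumor lay so far from the nearest other that the gap took up more than 0.71 of the group's range (Dixon's 95% value). That held in 12 of 100 groups (50 members in 2 groups each), against 4.88% of the 33534 groups of all genes kept; chance gives about 1 in 20 groups of independent values, and these members share the same tumors. PBS tumor 1 gave 4 of them: Il12rb2 (564, others 257 to 337), Il18r1 (1085, others 532 to 651), Il18rap (4298, others 3080 to 3420) and Il1bos (320, others 152 to 187). PIIO-1 tumor 5 gave 4: Il12a (48.1, others 7.83 to 19.1), Il17c (22.7, others 7.04 to 10.6), Il1f9 (1757, others 334 to 689) and, as the lowest tumor, Il7 (157, others 201 to 212). PIIO-1 tumor 4 was apart for Il24 (1797, others 827 to 1091) and Il17rd (16.9, others 5.87 to 8.17), and PBS tumor 5 for Il21r (1164, others 877 to 925) and Il9r (17.2, others 2.93 to 6.24). All values are normalized counts.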

How the results depend on the processing

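No alternative called a member. Of 634 differences of named members under alternatives, 615 kept their direction and 19 turned, in 10 members. Members at an unadjusted p under 0.05 numbered 4 (against 5.63% of all genes), but 8 with no filter (64 members tested, against 5.4%) and 8 in DESeq2 (against 6.04%). They numbered 8 with array weights, and 4 to 8 with 1 tumor left out (8 without PBS tumor 4 or PIIO-1 tumor 4, 7 without PIIO-1 tumor 1 or 3). With the replicate number as a block they numbered 9, and 0 genes were called. For array weights, the block and the tumors left out, the share of all genes was not counted, so these member counts have no background. Same-numbered tumors correlated between -0.206 and 0.0954, no tumor was most like its own number, and so the numbers do not pair the tumors. Groups did not overlap for 0 members, for 1 with no filter (Il23r), and for 0 to 3 with 1 tumor left out: Il7 and Il9r without PBS tumor 5 (2.43% of all genes), Il6ra without PIIO-1 tumor 1 (2.61%), and Il12rb1, Il15ra and Il17rd without PIIO-1 tumor 4 (1.88%). DESeq2 called 3 of all genes. With PIIO-1 tumor 5 and PBS tumor 4 both left out the median was -0.058 over ligands and -0.011 over receptor chains. Il15 turned to 0.0017 in edgeR and 0.0081 in DESeq2. With 1 tumor left out, the differences that turned ranged from -0.12 to 0.069 for Il15, -0.11 to 0.071 for Il18, -0.25 to 0.054 for Il27, -0.23 to 0.053 for Il2rb, -0.0018 to 0.20 for Il11, -0.79 to 0.18 for Il33, -0.0010 to 0.30 for Il10ra and -0.020 to 0.39 for Il1a. With both tumors out Il1r2 was -0.035 and Il1rn -0.033. The relation of Il10ra to macrophage markers was r = 0.672 under upper-quartile scaling (permutation adjusted p = 0.0544) and 0.522 to 0.739 with 1 tumor left out, and that of Il2rb to T cell markers 0.701 to 0.83. The causes of these changes were not tested. At 2.45 to 4.68 normalized counts per 3 reads, depth limits the 14 members below the filter.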
